A study of Homo sapiens with 12 samples.

Results

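Interferon-stimulated genes (ISGs) were followed across the 6 groups of this experiment in HK2 cells. The members were 50 genes found by their symbol among the 58278 genes listed in each library. They comprise the receptor subunits of type I interferons and of interferon-γ, and antiviral effectors that interferon is known to induce. Of the 50 members, 47 passed the filter on low counts and were tested among 24342 genes. HK2 is a line of human proximal tubular epithelial cells immortalised with oncogenes of a papillomavirus. The cells were left untreated (Ctrl), were exposed for 3 h to 5 ng/mL of TNF-α (TN), or received this TNF-α together with a short-chain fatty acid (SCFA) for 24 h. Propionate at 15 mM or butyrate at 3 mM was added before TNF-α in the groups PRTN and BUTN, and after it in TNPR and TNBU. Each group held 2 biological replicates, so that p-values rest on the spread between these cultures of 1 line.

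Interferons bind pairs of receptor subunits at the cell surface, and the attached Janus kinases (JAK1, JAK2 and TYK2) phosphorylate transcription factors such as STAT2. STAT2 takes part with IRF9 in a complex that binds the interferon-stimulated response element (ISRE) in target promoters, and the gamma-activated site (GAS) is the element of the interferon gamma response. The induced proteins sense or destroy viral RNA, trap virions, restrict viral entry or modify other proteins with ISG15, and in renal tubular cells several of them are also known to be induced by inflammatory cytokines. All groups but Ctrl received TNF-α, no group received an SCFA alone, and no group was kept for a further 24 h after TNF-α without an SCFA. Added SCFA and elapsed time therefore cannot be told apart in TNPR and TNBU against TN. The labels disagree in 1 respect, as their shared treatment text names thapsigargin and JQ1 while the source label of a library gives TNF-α and its SCFA. The source label was used.

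The expected counts summed to between 27269986 and 33851130 per library, and 0.129% to 0.169% of them fell on the members. Levels are given as CPM, expected counts relative to the library total scaled with TMM factors, which ranged from 0.913 to 1.06. An amount of 3 counts, the limit that a count of 0 allows, was 0.0886 to 0.110 CPM before that scaling, which covers counting error only. Keratins KRT8 (781 and 785 CPM) and KRT18 (364 and 370 CPM), vimentin VIM and the renal factor PAX8 (362 and 366 CPM) were high in Ctrl. The endocytic receptor gene LRP2 had a count of 0 in all Ctrl and TN libraries and the phosphate transporter gene SLC34A1 did not exceed 0.0867 CPM in any library, so these defining markers of the proximal tubule were at or near 0, while others of the 16 markers were expressed, such as GGT1 (221 and 220.4 CPM in Ctrl) and HAVCR1 (197 and 205 CPM). The 16 summed to 3442 to 4750 CPM over all libraries, with opposite moves within the list, as GGT1 stood at 74.0 CPM or less in the SCFA libraries and KRT19 at 82.3 to 121 CPM there against 4.47 to 5.15 CPM in Ctrl and TN. The 5 fibroblast markers summed to 52.6 to 59.6 CPM in Ctrl and TN and to 203 to 254 CPM in the SCFA groups, chiefly collagen COL1A1, with COL1A2 at 0 in Ctrl and TN and at most 0.438 CPM elsewhere. LUM was at 6.09 to 8.30 CPM in Ctrl and TN and at 31.8 to 60.7 CPM with SCFAs, while DCN was lower there. The 4 endothelial markers summed to 0.143 to 0.287 CPM in Ctrl and TN and to 2.21 to 3.64 CPM with SCFAs, with KDR at most 0.094 CPM in any library. CDH5 was at 0.0745 to 0.251 CPM in Ctrl and TN and at 0.868 to 1.83 CPM with SCFAs, and VWF and PECAM1 moved the same way. The 8 leukocyte markers summed to 28.9 to 53.8 CPM over all groups, mostly from CD68, with PTPRC and CD3E at most 0.152 and 0.064 CPM. CD14 was at 0.633 to 1.00 CPM in Ctrl and TN and at 2.13 to 3.53 CPM with SCFAs. The fibroblast and endothelial sums were higher in all SCFA groups and the leukocyte sum in both butyrate groups (42.8 to 53.8 CPM, against 28.9 to 36.7 CPM in the others), and their part in the results on the members was not tested. In RNA of a whole culture, fewer cells that express a gene and less RNA of it per cell cannot be told apart.

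RSAD2 (viperin), the apoptosis factor XAF1 and EPSTI1 did not pass the filter, with at most 2 counts in any library for RSAD2 and EPSTI1 and 1 for XAF1. The oligoadenylate synthetase OAS2 reached 6 counts and the guanylate-binding protein GBP4 4 counts at most, so no fold change is given for them. Expression ranged widely among the others. Per kilobase of exon, the secreted glycoprotein gene LGALS3BP was highest in Ctrl, at 128 CPM per kb, followed by BST2 (tetherin, which holds virions at the membrane) at 78.5, IFNGR1 at 30.7, IFNGR2 at 30.5 and ISG15 at 18.3 CPM per kb. Counts that were not whole in all 12 libraries, which arise where reads match several genes, were found for 12 members. These were IFNAR2, IFNGR2, EIF2AK2, DDX60, IFITM1, IFITM2, IFITM3, GBP1, GBP2, PARP9, DTX3L and SAMHD1, whose values therefore depend in part on how RSEM divided reads between genes. The same holds for members with such counts in fewer libraries, among them IFIT2, GBP3 and HERC6 (11 libraries each) and USP18 (9 libraries).

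Many promoters of the members hold the letters of the element that the interferon pathway acts on. In RefSeq promoters on GRCh38.p14, spanning 250 bases before to 50 bases after the start site, 40 of the 50 members had an entry. The ISRE was searched as GAAANNGAAA on both strands (its reverse is TTTCNNTTTC), and 26 of the 40 members (65%) held it, against 3.65% of all 27305 promoters. The GAS letters TTCNNNGAA were present in 9 of 40 (22.5%, against 7.88% of all), and the NF-κB consensus in 7 of 40 (17.5%, against 5.72% of all). The GAS letters read the same on both strands in form, and the 3 motifs may overlap in part. The following stretches of 60 bases, with the ISRE letters in capitals, lie upstream of the RefSeq start sites, read 5′ to 3′ on the strand of the gene, of members that were higher in the SCFA groups than in TN:
IFI6 chr1:27672251-27672310 (minus strand): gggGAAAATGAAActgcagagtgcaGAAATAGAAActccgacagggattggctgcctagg
IFIT1 chr10:89392495-89392554 (plus strand): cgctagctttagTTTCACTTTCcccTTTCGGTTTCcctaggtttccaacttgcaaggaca
ISG15 chr1:1013365-1013424 (plus strand): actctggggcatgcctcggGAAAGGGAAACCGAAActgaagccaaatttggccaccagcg
IFI27 chr14:94110616-94110675 (plus strand): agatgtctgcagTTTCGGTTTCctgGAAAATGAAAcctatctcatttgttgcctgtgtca
The next stretches, in the same notation, are from members that were lower in the SCFA groups than in TN:
IFIT3 chr10:89327850-89327909 (plus strand): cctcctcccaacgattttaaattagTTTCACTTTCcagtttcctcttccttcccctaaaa
IFI44L chr1:78620350-78620409 (plus strand): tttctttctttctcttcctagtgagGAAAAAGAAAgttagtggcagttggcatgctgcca
These stretches were chosen because they hold the element. In PRTN vs TN, the ISRE letters were in 4 of 5 promoters of members called up, 10 of 16 of those called down and 11 of 16 of those not called. In BUTN vs TN these were 4 of 6, 9 of 12 and 12 of 19, in TNPR vs TN 4 of 6, 12 of 17 and 9 of 14, and in TNBU vs TN 4 of 6, 11 of 15 and 10 of 16. A match of letters is a description of the sequence and does not show that a factor bound there.

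TNF-α alone changed few members, and the receptors were the main ones. A call means a fold change over 1.5 with an adjusted p under 0.05 in limma-voom, adjusted over all genes tested. In TN vs Ctrl, 5 of 47 members were called up (10.6%, against 0.764% of all genes) and 1 was called down (2.13%, against 0.534%). The median log2 fold change was 0.05 over the members and -0.01 over all genes. Of the 4 receptor genes 3 were called up, of the 6 large GTPases 1 (GBP1), of the 4 membrane factors 1 up and 1 down (IFITM2 and IFITM1), and none of the 11 RNA sensors and blockers, of the 10 genes of ISG15 and the ligases, of the 5 tested enzymes and SAMD9 genes or of the 7 others. At an unadjusted p under 0.05 stood 13 of 47 members (27.7%, against 17.0% of all genes).

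GBP1, an interferon-inducible GTPase that attacks the membranes of pathogens, had 19.6 and 18.9 CPM in Ctrl and 39.2 and 36.2 CPM in TN. It rose 1.96-fold (log2 fold change 0.97 ± 0.09 SE, limma-voom adjusted p = 7.1e-05). Its neighbours GBP2 (17.2 and 18.6 CPM in Ctrl, 23.1 and 24.9 in TN) and GBP3 (17.6 and 15.8, against 25.7 and 24.0) were higher in both TN libraries but stayed under the 1.5-fold limit, at log2 fold changes of 0.42 and 0.57. For GBP3 11 of 21 alternative fits made the call, with values of 0.50 to 0.65. IFITM2, which blocks viral fusion, was at 1.01 and 1.14 CPM in Ctrl and 1.98 and 2.83 CPM in TN (log2 fold change 1.13 ± 0.26 SE, limma-voom adjusted p = 0.0343). IFITM1, its homologue at the cell surface, was at 6.99 and 6.04 CPM in Ctrl and 3.98 and 4.45 CPM in TN (log2 fold change -0.63 ± 0.14 SE, limma-voom adjusted p = 0.0323). The IFITM calls were fragile. Of 21 alternative fits, 10 called IFITM1 and 13 called IFITM2. The adjusted p reached 0.247 and 0.243, in both cases without Ctrl replicate 1, and DESeq2 gave no adjusted p for IFITM2.

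With TNF-α all 4 receptor genes among the members were higher, 3 of them called, and each of the 4 stood lower in every SCFA group than in TN. IFNAR1 and IFNAR2 form the receptor of type I interferons, and IFNGR1 and IFNGR2 that of interferon-γ. The genes of the interferon lambda receptor are not members. Of them, IFNLR1 was at 12.2 and 12.4 CPM in TN and higher in every SCFA library (14.0 to 19.3 CPM). IL10RB was at 23.1 and 24.4 CPM in TN and 18.2 to 23.0 CPM in the SCFA groups. IFNAR2, at chr21:33205282-33265675, had 73.0 and 74.3 CPM (Ctrl), 122 and 121 (TN), 52.6 and 58.1 (PRTN), 60.1 and 64.8 (BUTN), 52.2 and 49.4 (TNPR), and 52.9 and 46.1 (TNBU). Thus TN stood above all other libraries and every SCFA library below Ctrl. The log2 fold change was 0.72 ± 0.07 (SE) in TN vs Ctrl and -1.14, -0.96, -1.26 and -1.30 in PRTN, BUTN, TNPR and TNBU vs TN, with SEs of 0.07 to 0.08 and all of them called. IFNGR2, at chr21:33403413-33479348, had 78.2 and 76.8 CPM (Ctrl), 118 and 120 (TN), 53.1 and 54.9 (PRTN), 59.6 and 58.1 (BUTN), 41.4 and 34.1 (TNPR), and 40.9 and 36.7 (TNBU). It was called up in TN vs Ctrl (0.62 ± 0.08 SE) and down against TN in all 4 SCFA groups (-1.14, -1.02, -1.66 and -1.62). Against Ctrl it was lower by 1.04 and 1.00 log2 units in TNPR and TNBU, which were calls, and by 0.52 and 0.40 in PRTN and BUTN, which were not.

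IFNGR1, the ligand-binding chain, was at 112 and 106 CPM (Ctrl), 192 and 194 (TN), 119 and 124 (PRTN), 145 and 147 (BUTN), 103 and 97.3 (TNPR), and 117 and 102 (TNBU). It was up 1.77-fold in TN vs Ctrl (log2 fold change 0.82 ± 0.07 SE) and was called down against TN in PRTN (-0.67), TNPR (-0.94) and TNBU (-0.82), but in BUTN the log2 fold change of -0.40 did not reach 1.5-fold. IFNAR1 lay at 62.1 and 60.3 CPM in Ctrl, 83.2 and 78.9 in TN and 50.9 to 63.2 in the SCFA groups, and no comparison of it was called, at log2 fold changes of 0.40 in TN vs Ctrl and -0.37 to -0.52 against TN. The order of the groups was thus alike for the 4 genes in that TN was highest. IFNAR2, IFNAR1 and IFNGR2 lie within 274 kb of chromosome 21, and IFNGR1 lies on chromosome 6. IFNAR2 overlaps the read-through gene IFNAR2-IL10RB on the same strand, and IFNGR2 overlaps TMEM50B on the opposite strand.

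**Figure D1:**
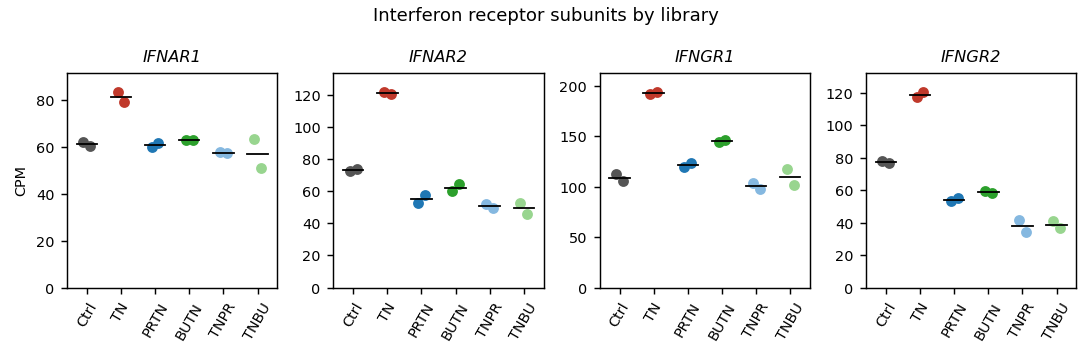
Levels of the 4 interferon receptor genes among the members in CPM (linear axis from 0) in each library. Points are the 2 replicates of a group, with a line at their mean. For each gene both TN libraries stand highest, at 118 to 122 CPM for IFNAR2 and IFNGR2.

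The SCFA groups differed from TN in many members, in both directions, with more falls than rises. In PRTN vs TN, 6 of 47 members were called up (12.8%, against 23.9% of all genes) and 22 down (46.8%, against 16.7%). With library size as the only scaling the counts were 8 and 17. The shares of all genes under that scaling are not given here, so these counts have no background beside them. In BUTN vs TN, 7 were up (14.9%, against 23.1%) and 17 down (36.2%, against 14.8%). In TNPR vs TN, 8 were up (17.0%, against 24.9%) and 21 down (44.7%, against 16.9%). In TNBU vs TN, 9 were up (19.1%, against 25%) and 17 down (36.2%, against 16.5%). The median log2 fold changes over the members were -0.52, -0.33, -0.38 and -0.38, and those over all genes 0.09, 0.08, 0.12 and 0.09. Over all genes tested, the shares of falls thus stood above the background and the shares of rises below it. Since calls become easier with expression, the same counts were made among genes with a mean of at least 10 CPM. There 12 of 24 members were called down in PRTN vs TN against 23.2% of all such genes, 9 in BUTN vs TN against 21.0%, 12 in TNPR vs TN against 24.8% and 11 in TNBU vs TN against 24.7%. Called up were 3 of 24 in PRTN vs TN against 18.0% and 4 of 24 in each of BUTN, TNPR and TNBU against 15.3%, 18.1% and 16.9%, so at this level the rises in the last 3 groups were close to the background. These 4 comparisons share the TN libraries.

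**Figure D2:**
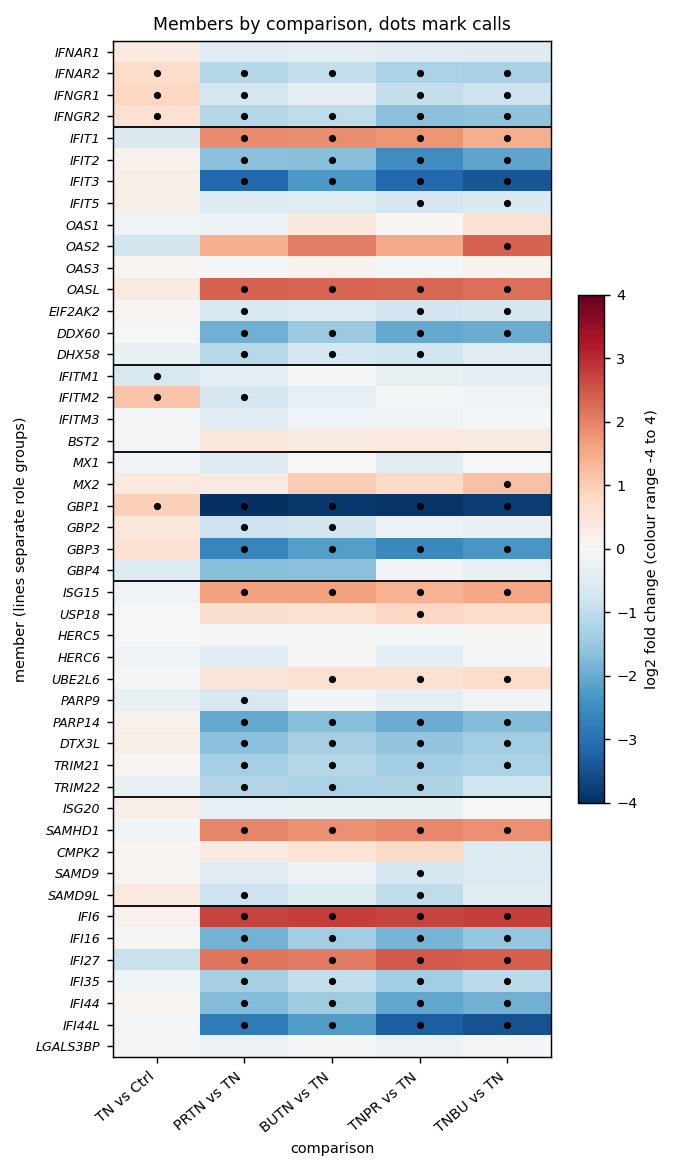
Log2 fold changes of the 47 tested members in TN vs Ctrl and in each SCFA group vs TN, ordered by role, with red for higher and blue for lower values and a dot where the change was called. The receptors at the top are red in TN vs Ctrl and blue in the SCFA columns, and the SCFA columns hold between 6 and 9 called rises and between 17 and 22 called falls.

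The same counts were made against Ctrl. In PRTN, 6 members were called up and 18 down (against 22.6% and 16.9% of all genes). For BUTN these counts were 8 and 16 (22% and 14.9%), for TNPR 8 and 20 (23.6% and 16.8%), and for TNBU 9 and 16 (23.6% and 16.5%). The Ctrl libraries are shared by these comparisons and, through TN vs Ctrl, linked to those above. Of the 4 receptors none was called against Ctrl in PRTN or BUTN and 1, IFNGR2, in TNPR and in TNBU.

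Among the members that rose, IFI6, a small mitochondrial and endoplasmic reticulum protein that limits apoptosis and flavivirus replication, changed most. IFI6 had 5.12 and 5.56 CPM (Ctrl), 5.55 and 6.46 (TN), 40.3 and 38.6 (PRTN), 39.8 and 41.7 (BUTN), 38.7 and 39.8 (TNPR), and 39.3 and 42.5 (TNBU). All 8 SCFA libraries lay between 38.6 and 42.5 CPM and apart from the other 4. The rise over TN was 6.56-fold in PRTN, 6.78-fold in BUTN, 6.53-fold in TNPR and 6.80-fold in TNBU, with log2 SEs of 0.11 and limma-voom adjusted p of 1.39e-09 to 1.61e-09. IFI27, a related mitochondrial protein, was at 0.824 and 0.430 CPM in Ctrl, 0.223 and 0.431 in TN and between 1.22 and 1.95 CPM in the SCFA groups. It rose in each SCFA group over TN by 2.15, 2.08, 2.45 and 2.38 log2 units, on counts of no more than 61, which leaves an SE of 0.43 to 0.44.

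ISG15, the ubiquitin-like protein that is conjugated to viral and cellular proteins, was at 16.3 and 15.4 CPM (Ctrl), 12.8 and 16.0 (TN), 44.8 and 43.6 (PRTN), 45.2 and 42.4 (BUTN), 38.1 and 37.4 (TNPR), and 41.4 and 41.7 (TNBU). It did not differ detectably between TN and Ctrl (log2 fold change -0.14 ± 0.11 SE) and rose 3.08-, 3.05-, 2.63- and 2.90-fold over TN in PRTN, BUTN, TNPR and TNBU. Its conjugating enzyme UBE2L6 lay at 22.0 to 25.3 CPM in Ctrl and TN and at 31.9 CPM or more in the SCFA groups. UBE2L6 was called up in BUTN, TNPR and TNBU (log2 fold change 0.60, 0.60 and 0.73), and in PRTN the value of 0.48 stayed under 1.5-fold. The calls in BUTN and TNPR lie at the 1.5-fold limit, and 11 of 21 alternative fits made each of them. The ligase genes HERC5 (18.1 to 21.4 CPM) and HERC6 (6.04 to 9.74 CPM) were not called against TN in any SCFA group. USP18, which removes ISG15 and dampens signalling at IFNAR2, was at 0.776 to 1.23 CPM in Ctrl and TN and 1.16 to 2.01 CPM with SCFAs, and only TNPR passed, with an adjusted p of 0.0498 in limma-voom and a call in 8 of 21 alternative fits. Against TN the ISG15 branch thus showed a rise of the modifier in each SCFA group, and no call for HERC5 or HERC6. Its conjugating enzyme was called in BUTN, TNPR and TNBU only, with the calls in BUTN and TNPR at the 1.5-fold limit.

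SAMHD1, which depletes the deoxynucleotides that viruses need, had 23.8 and 22.2 CPM (Ctrl), 20.7 and 21.6 (TN), 82.1 and 81.5 (PRTN), 74.1 and 75.2 (BUTN), 75.7 and 85.2 (TNPR), and 76.8 and 73.4 (TNBU). It rose 3.87-, 3.53-, 3.80- and 3.55-fold over TN (log2 SE 0.08 in each). SAMHD1 overlaps TLDC2 on the opposite strand and its counts were not whole in any library. OASL, an OAS-like protein without synthetase activity that enhances RNA sensing, was at 0.549 and 0.717 CPM in Ctrl, 0.782 and 0.826 in TN and 3.55 to 4.69 CPM in the SCFA groups. The rise of OASL was 5.15-fold in PRTN, 5.06-fold in BUTN, 4.97-fold in TNPR and 4.60-fold in TNBU.

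The IFIT genes, whose products bind viral RNA, went in opposite directions although they lie side by side within 138 kb at chr10:89283694-89421605. IFIT1 was at 4.98 and 3.69 CPM (Ctrl), 3.09 and 2.73 (TN), 10.1 and 11.6 (PRTN), 10.3 and 10.7 (BUTN), 10.1 and 9.56 (TNPR), and 8.93 and 7.20 (TNBU). It was called up against TN in each (log2 fold change 1.89, 1.85, 1.75 and 1.46, SE 0.18 to 0.19). IFIT3, which binds IFIT1 and stabilises it, was at 20.8 and 17.8 CPM (Ctrl), 24.2 and 21.3 (TN), 2.34 and 2.77 (PRTN), 4.99 and 4.31 (BUTN), 3.45 and 1.82 (TNPR), and 2.50 and 1.83 (TNBU). IFIT3 fell 8.89-fold in PRTN, 4.90-fold in BUTN, 8.91-fold in TNPR and 10.6-fold in TNBU against TN. Per kilobase of exon IFIT3 was the higher of the pair in TN, at a mean level of 4.50 against 0.631 CPM per kb for IFIT1, and IFIT1 the higher in BUTN, at 2.27 against 0.917 CPM per kb. IFIT2, which binds RNA rich in A and U, fell from 9.42 and 8.13 CPM in TN to 1.28 to 2.81 CPM in the SCFA groups (log2 fold change -1.67, -1.72, -2.49 and -2.12). IFIT5 was at 18.8 CPM in both TN libraries and at 11.8 to 14.3 CPM in the SCFA groups, and was called down in TNPR and TNBU (-0.66 and -0.59) but not in PRTN or BUTN (-0.50 and -0.48). The TNBU call of IFIT5 lay at the 1.5-fold limit, and 16 of 21 alternative fits made it, with values of -0.69 to -0.40. IFIT1, IFIT2 and IFIT3 overlap LIPA on the opposite strand, and whether RSEM used the strand is not given in the sources used here.

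Other sensors of double-stranded RNA were called down in most of the comparisons with TN. The helicase gene DDX60 had 15.8 and 15.2 CPM in Ctrl, 16.8 and 14.9 in TN and 2.63 to 5.69 CPM in the SCFA groups, with log2 fold changes against TN of -1.93, -1.49, -2.04 and -1.97 that were all called. DHX58, the regulator LGP2 of RNA helicase signalling, was called down in PRTN, BUTN and TNPR (-1.11, -0.71 and -0.73), with -0.44 in TNBU. EIF2AK2, the kinase PKR that halts translation, was called down in PRTN, TNPR and TNBU (-0.61, -0.78 and -0.69), with -0.53 in BUTN just under 1.5-fold. In contrast OAS1 (3.65 to 6.90 CPM over all libraries) and OAS3 (75.3 to 106 CPM), the synthetases that activate RNase L, were called in none of these comparisons.

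GBP1 showed the largest fall of all members. From 39.2 and 36.2 CPM (TN) it was at 2.48 and 1.94 (PRTN), 2.74 and 2.43 (BUTN), 2.62 and 2.27 (TNPR), and 2.37 and 3.09 (TNBU). This was a fall of 17.0-, 14.5-, 15.3- and 13.8-fold against TN, and against Ctrl the log2 fold change was -3.12, -2.90, -2.97 and -2.82. Thus the level with SCFAs lay far below that of untreated cells, and not only below that after TNF-α. GBP3 fell from 25.7 and 24.0 CPM in TN to 3.61 to 6.28 CPM (6.19-, 4.60-, 5.98- and 4.98-fold). GBP2 was called down where the SCFA came first, at 13.4 to 15.1 CPM in PRTN and BUTN (log2 fold change -0.82 and -0.74), and stood at 19.4 to 20.6 CPM in TNPR and TNBU (-0.23 and -0.29, not called). These 3 GBP genes lie within 192 kb of chromosome 1 with GBP4.

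Other large GTPases were low. MX1, which blocks viral nucleocapsids, was at 0.503 to 1.26 CPM over all libraries with overlapping groups and no call. MX2 was at 0.179 to 0.263 CPM in Ctrl and TN and 0.243 to 0.697 CPM with SCFAs, on at most 23 counts, and was called in TNBU alone (log2 fold change 1.16 ± 0.45 SE, limma-voom adjusted p = 0.0417), a call made in 12 of 21 alternative fits. OAS2 was also called there, on at most 6 counts.

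IFI44L, a feedback regulator of interferon responses, had 38.1 and 33.6 CPM (Ctrl), 34.7 and 33.4 (TN), 4.75 and 4.81 (PRTN), 7.20 and 7.11 (BUTN), 5.24 and 2.17 (TNPR), and 4.45 and 2.12 (TNBU). In TNPR and TNBU the second replicate was less than 0.5 times the first, and no SCFA library overlapped TN. The fall against TN was 7.11-, 4.75-, 9.89- and 11.1-fold, and without TNPR replicate 1 it was 16.0-fold in TNPR. IFI44, beside it on chromosome 1, went from 10.8 and 10.9 CPM in TN to 2.01 to 4.42 CPM (log2 fold change -1.74, -1.42, -2.09 and -1.93). IFI16, a nuclear sensor of DNA, fell from 67.1 and 61.3 CPM to 16.2 to 25.2 CPM (-1.90, -1.38, -1.87 and -1.56), and IFI35, a partner of the transcription factor BATF, from 7.56 and 8.11 to 2.56 to 4.19 CPM (-1.34, -0.94, -1.40 and -1.06). All of these were calls.

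**Figure D3:**
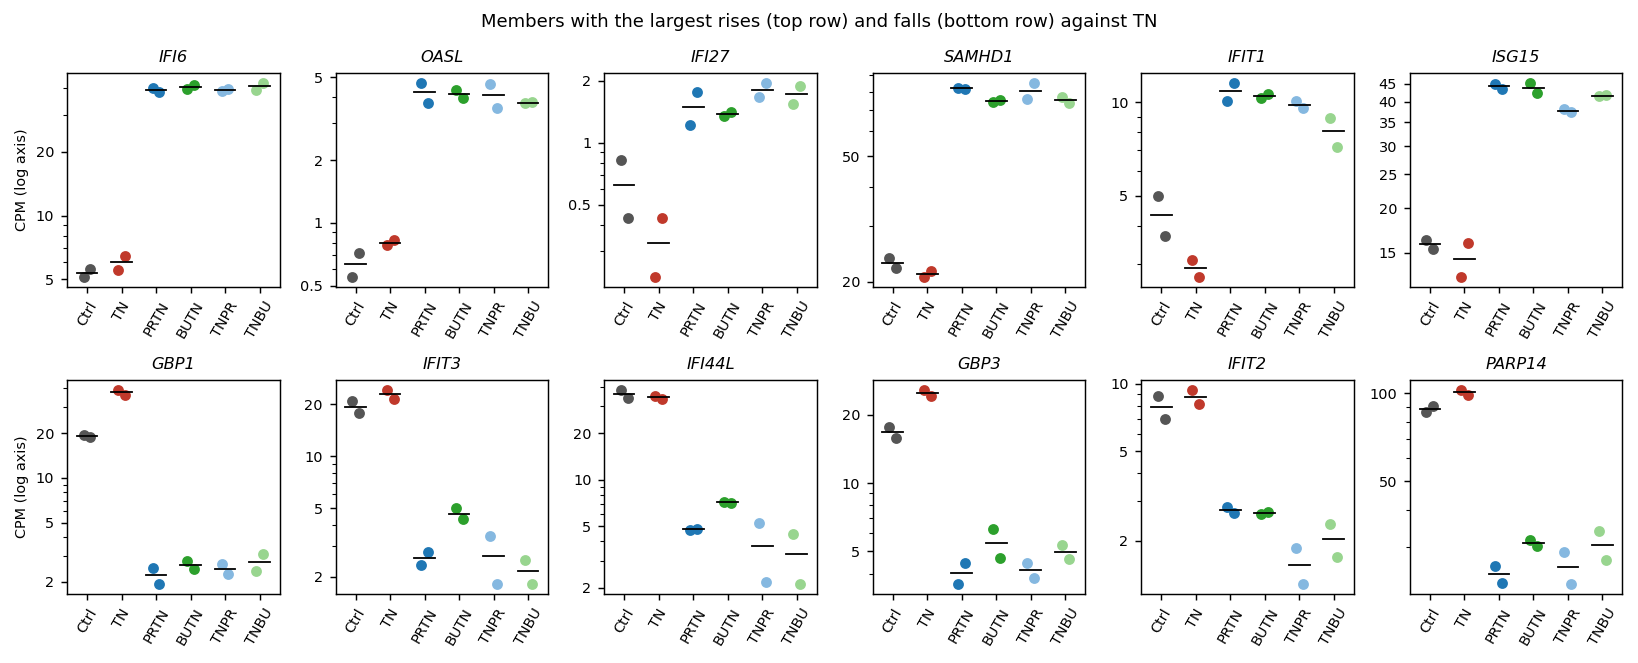
Levels in CPM (log axis) of 6 members that rose and 6 that fell, with points for the 2 replicates of each group and a line at the mean. In the top row the SCFA libraries stand above TN in each panel, from 38.6 to 42.5 CPM for IFI6, and in the bottom row they stand below both Ctrl and TN, from 1.94 to 3.09 CPM for GBP1.

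Several enzymes that attach ADP-ribose or ubiquitin were lower with SCFAs, among them neighbours on chromosome 3. PARP14, an ADP-ribosyltransferase, was at 86.3 and 90.4 CPM (Ctrl), 103 and 98.3 (TN), 25.7 and 22.6 (PRTN), 31.7 and 30.0 (BUTN), 28.7 and 22.4 (TNPR), and 33.9 and 26.9 (TNBU), a fall of 4.17-, 3.26-, 3.95- and 3.33-fold against TN. The ubiquitin ligase gene DTX3L fell from 71.3 and 71.6 CPM in TN to 22.2 to 30.7 CPM (log2 fold change -1.66, -1.32, -1.57 and -1.39). Its partner PARP9, which overlaps DTX3L on the opposite strand, was at 21.4 and 21.6 CPM in TN, 13.6 and 14.1 CPM in PRTN and at least 15.6 CPM with the other SCFA treatments, and was called down in PRTN alone (-0.64), with -0.12, -0.38 and -0.12 in BUTN, TNPR and TNBU. TRIM21, an antibody receptor and ubiquitin ligase in the cytosol, fell in each (-1.32, -1.14, -1.37 and -1.25). TRIM22, with at most 26 counts, was called down in PRTN, BUTN and TNPR (-1.16, -1.25 and -1.22), with -0.79 in TNBU, and 15, 17 and 15 of 21 alternative fits made these calls. Its value was -0.66 in BUTN without BUTN replicate 2 and -1.83 in TNPR without TNPR replicate 2.

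Of the 4 membrane factors, IFITM2 was called against TN and the others were not. IFITM3 was at 15.8 and 17.3 CPM in TN and 12.1 to 16.7 CPM with SCFAs, and IFITM1 at 3.98 and 4.45 against 2.90 to 4.07 CPM, with no call against TN. Against Ctrl, IFITM1 was called down in each, at -0.98, -0.69, -0.93 and -1.01. IFITM2 was called down in PRTN alone, to 1.32 and 1.67 CPM (log2 fold change -0.68 ± 0.23 SE, limma-voom adjusted p = 0.0234), a call that 16 of 21 alternative fits made, with an adjusted p of up to 0.180. BST2 was higher in every SCFA library (101 to 113 CPM) than in TN (75.8 and 88.8 CPM), at log2 fold changes of 0.37 to 0.45 that were under 1.5-fold. SAMD9 and SAMD9L, neighbours on chromosome 7 that restrict poxviruses, were called down in TNPR (-0.71 and -1.02) and SAMD9L also in PRTN (-0.82). LGALS3BP (346 to 441 CPM over all libraries), ISG20, an exonuclease (1.13 to 1.86 CPM), and the nucleotide kinase gene CMPK2, with at most 11 counts, had no call against TN.

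Next, the genes that carry the interferon signal were examined, as 31 further genes of the pathway of which 25 were tested. Among the ligands, IFNB1 and IFNG had a count of 0 in all 12 libraries, IFNK, IFNL1, IFNL2 and IFNL3 did not exceed 0.064 CPM, and IFNE stayed at 0.372 CPM or less. In TN vs Ctrl 1 of 25 was called up and 0 down. Against TN, 3 (12%) were up and 6 (24%) down with either SCFA given first, where of all genes 23.9% and 16.7% were called in PRTN and 23.1% and 14.8% in BUTN. TNPR had 3 (12%) up and 10 (40%) down, against 24.9% and 16.9% of all genes, and TNBU had 4 (16%) and 10 (40%), against 25% and 16.5%, at median log2 fold changes for PRTN, BUTN, TNPR and TNBU of -0.44, -0.10, -0.39 and -0.30.

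JAK1 fell from 1157 and 1127 CPM in TN to 381 to 460 CPM (log2 fold change -1.45, -1.37, -1.45 and -1.45) and IRF9 from 17.2 and 17.8 to 5.16 to 8.39 CPM (-1.63, -1.17, -1.52 and -1.38). STAT2 (55.3 to 81.4 CPM) and TYK2 (62.0 to 94.7 CPM) were not called against TN, and JAK2 was called up in each (0.70, 0.74, 0.63 and 0.82), from 2.94 and 2.51 CPM to 4.10 to 5.01 CPM. IRF2, a competitor of IRF1, was the 1 gene called up in TN vs Ctrl (0.60) and was down in each SCFA group against TN (-1.27, -1.14, -1.58 and -1.50). IRF1 was down in TNPR and TNBU (-0.93 and -0.83), with -0.46 and -0.37 in PRTN and BUTN.

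IRF7, an amplifier of interferon production, was called up with butyrate (0.67 in BUTN and 0.66 in TNBU) and was at 0.31 and 0.21 in PRTN and TNPR. Of the brakes, the phosphatase gene PTPN1 was up in each (0.84, 0.72, 0.95 and 0.90) and SOCS3 in TNPR and TNBU (1.07 and 0.96). Among sensors and adaptors, the endosomal RNA receptor gene TLR3 (-2.52, -1.85, -3.27 and -1.92), the DNA sensor gene MB21D1 (-1.30, -1.18, -1.63 and -1.38) and the adaptor gene MAVS (-0.65, -0.68, -0.63 and -0.72) were down in each. TLR3 was low throughout, at 2.09 and 1.97 CPM in TN and 0.160 to 0.626 CPM in the SCFA groups, so its fold changes rest on few counts. The cytosolic RNA sensor genes DDX58 (RIG-I; -0.74 and -0.72) and IFIH1 (MDA5; -0.71 and -0.63) were called down in TNPR and TNBU but not in PRTN and BUTN, where DDX58 was at -0.33 and -0.18 and IFIH1 at -0.56 and -0.44.

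**Figure D4:**
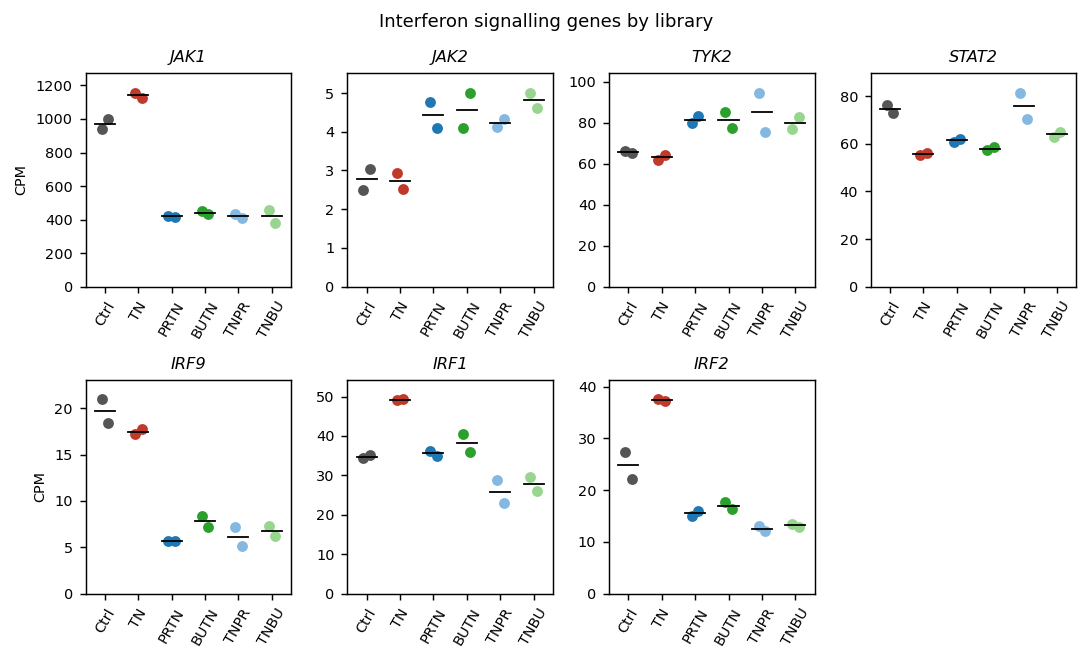
Levels in CPM (linear axes from 0) of 7 interferon signalling genes in each library, with the 2 replicates as points and their mean as a line. JAK1 stands at 939 CPM or more in Ctrl and TN and at 460 CPM or less in the SCFA libraries, IRF9 shows a step in the same direction, and STAT2 and TYK2 do not.

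Propionate and butyrate were then compared with each other at the doses used, which differed (15 and 3 mM). Butyrate has a carbon chain longer by 1 carbon. In PRTN vs BUTN 0 of 47 members were called up (against 0.0411% of all genes) and 0 down (0.127%), by limma-voom, edgeR and DESeq2 alike. In the same comparison 14 members had an unadjusted p under 0.05 (29.8%, against 14.0% of all genes), and the estimate was below 0, that is lower with propionate, for 37 of 47 (78.7%, against 52.7% of all genes), with a median log2 fold change of -0.22. For 38 members the 95% interval lay within a 2-fold difference either way. The largest difference was that of IFIT3 (log2 fold change -0.86, 95% interval -1.42 to -0.30, limma-voom adjusted p = 0.153). OAS1 was at 3.65 and 4.05 CPM in PRTN and 6.38 and 5.58 in BUTN (-0.63, interval -0.97 to -0.29, limma-voom adjusted p = 0.0912). PARP9 had an adjusted p of 0.0209 in limma-voom at a difference of -0.52 (interval -0.70 to -0.34), under 1.5-fold. Among members that rose, the intervals were -0.20 to 0.10 for IFI6, -0.15 to 0.18 for ISG15 and -0.01 to 0.28 for SAMHD1. They were wider for IFIT1 (-0.22 to 0.31), OASL (-0.32 to 0.37) and IFI27 (-0.52 to 0.68).

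When the SCFA followed TNF-α, TNPR vs TNBU had 0 of 47 called up (against 0% of all genes) and 0 down (0.00822%), by all 3 tools, with 6 members at an unadjusted p under 0.05 (12.8%, against 8.61% of all genes). The estimate was lower with propionate for 32 of 47 (68.1%, against 50.04% of all genes). The median was -0.12 and 40 intervals lay within a 2-fold difference either way. OAS1 was again lower with propionate, at -0.50 (interval -0.83 to -0.17, limma-voom adjusted p = 0.395). Among the other pathway genes the adaptor gene TMEM173 (STING) was called lower in PRTN than in BUTN, with 11.1 and 10.3 against 19.4 and 16.2 CPM (log2 fold change -0.73 ± 0.12 SE, limma-voom adjusted p = 0.0266).

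**Figure D5:**
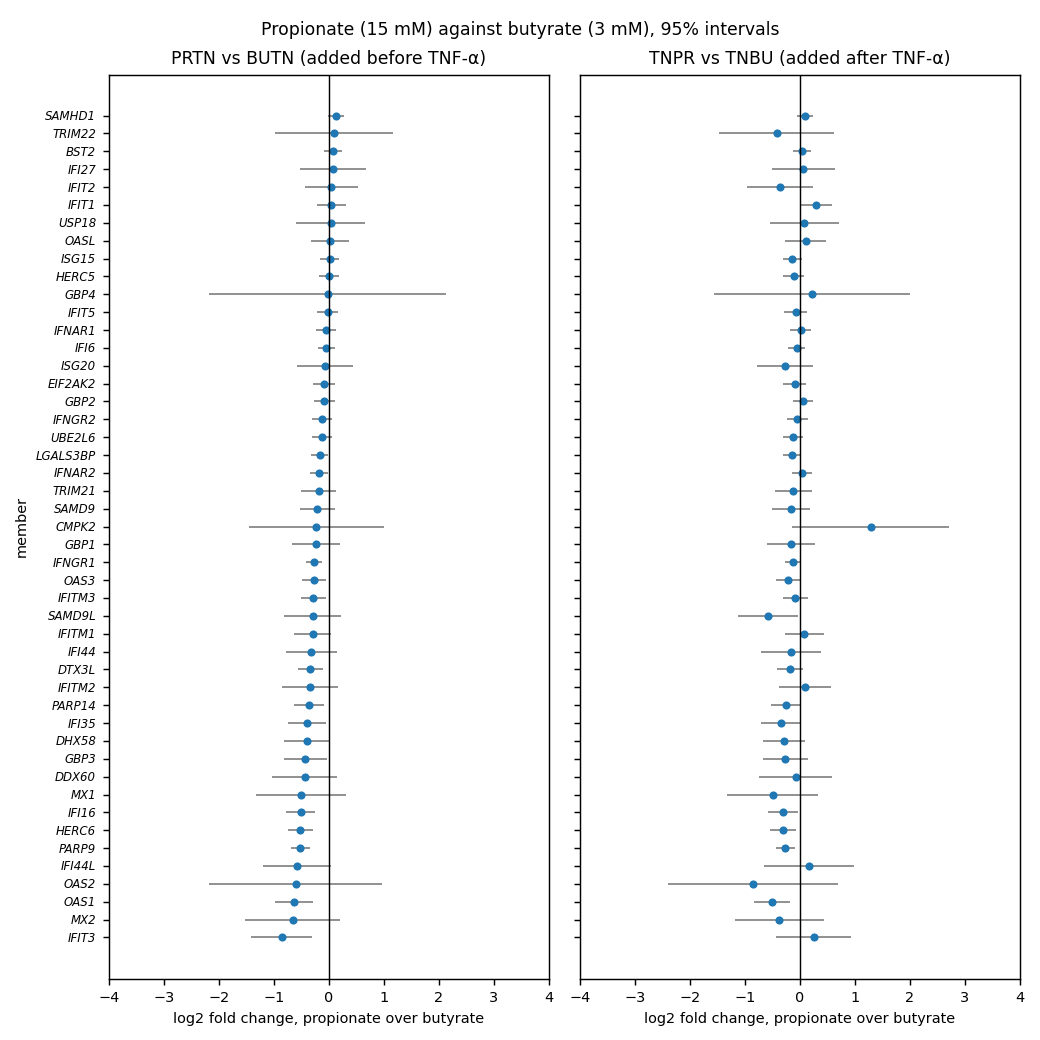
Log2 fold change of propionate (15 mM) over butyrate (3 mM) for the 47 tested members, as points with 95% intervals, when the SCFA was added before TNF-α (left) and after it (right), with genes in the order of the left panel. In the left panel 37 of 47 points lie below 0, and no member was called in either panel.

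Few members were called for the time of addition. For 39 of 47 members in TNPR vs PRTN, and 39 in TNBU vs BUTN, the 95% interval of the difference lay within 1 log2 unit either way. In each, 8 members had an unadjusted p under 0.05 in limma-voom (17.0%, against 11.2% and 14.4% of all genes). The lowest estimates in TNBU vs BUTN were those of IFI44L (log2 fold change -1.22, interval -1.95 to -0.50) and IFIT3 (-1.11, interval -1.72 to -0.50). In TNPR vs PRTN the lowest was that of IFIT2 (-0.81, interval -1.36 to -0.26). These were not calls. In TNPR vs PRTN 1 of 47 was called up (against 0.0534% of all genes) and 0 down (0.107%). The 1 was GBP2, with 20.6 and 20.3 CPM against 13.7 and 13.4 (log2 fold change 0.59 ± 0.08 SE, limma-voom adjusted p = 0.0123), just over 1.5-fold, a call that 9 of 21 alternative fits made and that was lost on leaving out any 1 library of the SCFA groups. In TNBU vs BUTN 0 were called up (0.0945%) and 1 down (0.173%), which was IFNGR2, with 40.9 and 36.7 CPM against 59.6 and 58.1 (-0.60 ± 0.09 SE, limma-voom adjusted p = 0.00984), a call that 16 of 21 alternative fits made. GBP2 differed the same way there, at 0.45 (limma-voom adjusted p = 0.0377, under 1.5-fold), and IFNGR2 in TNPR vs PRTN, at -0.52 (limma-voom adjusted p = 0.0329, under 1.5-fold). IFNGR1 was lower in TNBU than in BUTN by 0.42 log2 units (limma-voom adjusted p = 0.0186), also under 1.5-fold. Whether the effect of time differed between the SCFAs was tested as the difference of these differences. There 0 members were called up or down (0% of all genes in either direction). In limma-voom 2 had an unadjusted p under 0.05 (4.26%, against 3.84% of all genes), a share close to the background. In all groups with an SCFA the TNF-α exposure began either 24 h after the SCFA or before it, so order and total time since TNF-α cannot be told apart.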

How the data were processed

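Polyadenylated RNA of 12 HK2 libraries was sequenced as stranded libraries. The authors aligned reads to GRCh38 with STAR (2.6.1a per the labels) and deposited RSEM expected counts on the genes of GENCODE release 26, as estimates without normalization in which reads matching several genes are divided between them. The strand setting of RSEM is not given in the sources used here. Each library has its group from its own label, and 0 columns were left unmapped.

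Unrounded counts were filtered (geometric mean of the count with 1 added, minus 1, of at least 1), scaled with TMM (edgeR 4.0.16) and fitted with limma 3.58.1 (voom, R 4.3.3) as 6 group means, with Benjamini-Hochberg adjustment over 24342 genes and moderated statistics (prior degrees of freedom 6.12). Error is the SE of the log2 fold change. edgeR's quasi-likelihood test and DESeq2 1.42.0, both on counts rounded to whole numbers, other scalings and filters, a fit of only the groups compared, the replicate number as a block and leaving out each library were alternatives. The fits with limma-voom, edgeR and DESeq2 were tested on simulated data, for TN vs Ctrl only. Same-numbered libraries were not treated as pairs in the main fit. The correlations of their deviations from group means were -0.0347 to 0.0658 over 15 pairs of groups, which does not show that no gene varied with replicate number. IFI44L was lower in replicate 2 of both TNPR (5.24 and 2.17 CPM) and TNBU (4.45 and 2.12 CPM), as was DDX60. GBP1 was lower in replicate 2 of TNPR (2.62 and 2.27 CPM) but higher in that of TNBU (2.37 and 3.09 CPM). TNPR and TNBU had the highest median absolute log2 differences within a group, at 0.152 and 0.174, against 0.0760 to 0.119 elsewhere.

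The members and gene lists were chosen with earlier results of these data known. Named with full values were the largest rises and falls (up to 5 each) among called members whose higher group reached 1 CPM and whose libraries did not overlap, the receptors and well-known members of each role, and other members are given briefly. Gene positions are from GENCODE release 44 and promoters from RefSeq (GRCh38.p14). A signalling gene of the pathway list is not reported here.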

Additional observations from a re-analysis of the deposited data

How the results depend on the processing

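The counts of members called in each SCFA group against TN stayed within 1.5 times the reported count under every alternative. The median over the members stayed below 0 in these 4 comparisons under every alternative run, from -0.63 to -0.37 in PRTN vs TN and from -0.57 to -0.19 in TNBU vs TN.

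Counts near 0 moved. In TN vs Ctrl the rises dropped to 1 at a fold over 2, and the 1 fall to 0 with DESeq2, without a low count filter, with only the groups compared and at a fold over 2 (0 to 1 leaving out 1 library). In BUTN vs Ctrl the rises were 5 without Ctrl replicate 2 (5 to 8 over all left-out libraries). In PRTN vs BUTN 2 falls appeared with only the groups compared and by the unadjusted p. In TNPR vs PRTN the rises were 0 with DESeq2, relative log expression size factors, the filter that any 0 fails, only the groups compared and a fold over 2, and 2 by the unadjusted p (0 to 1 leaving out 1 library), and the falls 1 by the unadjusted p (0 to 1, with the 1 without TNPR replicate 1). In TNBU vs BUTN the falls were 2 with DESeq2 and 2 with the replicate block, 3 by the unadjusted p, and 0 with library size alone, only the groups compared and a fold over 2 (0 to 3, with 0 without BUTN replicate 1, BUTN replicate 2 or TNBU replicate 2 and 3 without TNPR replicate 1, TNPR replicate 2 or TNBU replicate 1). The difference of differences had 1 rise by the unadjusted p. The cause was not tested. The replicate block moved no other count by over 1.5 times. For the members named by rule, none of the 1301 values from alternatives reversed and 25 lost the call, all of them of IFITM1, IFITM2, IFNGR1 and IFNGR2. The rule took the largest called changes, and well-known members only where they were called, so stability was in part built in. Less stable calls, such as those of UBE2L6, USP18, MX2 and TRIM22, are not in these counts. With library size as the only scaling, IFNGR2 in TN vs Ctrl (0.56) and IFNGR1 in PRTN vs TN (-0.51) stayed under 1.5-fold. That scaling moved the median of all genes in TNPR vs TN from 0.12 to 0.29. Depth limited OAS2, GBP4, CMPK2, MX2 and TRIM22, with at most 26 counts each.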
